A study of Mus musculus with 26 samples.

Results

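Cyclin-dependent kinase (CDK) inhibitors and classical targets of the transcription factor p53 were examined as 10 genes chosen by name, out of 55414 gene identifiers that the tables of both vessel beds share. They are the CIP/KIP inhibitors Cdkn1a (ENSMUSG00000023067), Cdkn1b (ENSMUSG00000003031) and Cdkn1c (ENSMUSG00000037664), the INK4 inhibitors Cdkn2a (ENSMUSG00000044303), Cdkn2b (ENSMUSG00000073802) and Cdkn2c (ENSMUSG00000028551), and the p53 targets Mdm2 (ENSMUSG00000020184), Ccng1 (ENSMUSG00000020326), Sesn2 (ENSMUSG00000028893) and Gdf15 (ENSMUSG00000038508). Each was found in the tables by its symbol. The study asked how deletion of Sphk1 from smooth muscle changes arterial RNA in hypertension. Libraries of mRNA were sequenced from the mesenteric arteries, small muscular vessels that feed the gut, and from the aorta, a large elastic artery, of male C57BL6J mice. Sphk1 encodes sphingosine kinase 1, which makes the signalling lipid sphingosine-1-phosphate.

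All mice carried floxed Sphk1 alleles. The KO AngII group (n = 5 per vessel bed) was Sphk1f/fTagln-cre+, in which Tagln, a gene of contractile smooth muscle, lends its promoter to Cre, and received angiotensin II (AngII), a vasoconstrictor hormone. The WT AngII group (n = 4 per vessel bed) was Sphk1f/fTagln-cre-, so its Sphk1 was intact, and received the same infusion. The WT sham group (n = 4 per vessel bed) was Sphk1f/fTagln-cre- and received no AngII. The dose was 490 ng/kg/min for 14 days from an osmotic minipump under the skin, started at 12 to 14 weeks of age. Sham mice with the deletion were not analysed here, and all values for the deletion are from infused mice. Because WT mice lack Cre, the deletion and the presence of Cre cannot be told apart.

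CIP/KIP proteins bind and restrain the kinases of cyclin E and cyclin A, and INK4 proteins keep CDK4 and CDK6 from cyclin D, so both families slow the entry into DNA synthesis. p53 switches on Cdkn1a, the gene of p21, along with its own antagonist Mdm2 and a set of growth, stress and death genes. In arteries, p21 and p27 (Cdkn1b) are best known as brakes on smooth muscle proliferation after injury, and p16Ink4a and p19Arf, both made from Cdkn2a, as marks of senescence and of tumour suppression.

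Stretches of promoter are shown for the members whose promoter window held a p53 motif, since binding at such motifs is the textbook basis for calling these genes p53 targets. RefSeq windows on GRCm38.p6, from 250 bases before to 50 bases after a start site, matched 9 of the 10 members (13 windows). Cdkn1c had none. The motif searched was the p53 decamer, of which a full p53 response element holds a pair. The decamer reads the same on both strands. Capitals mark the match, and each stretch runs 5′ to 3′ on the strand of the gene. The Cdkn1a stretch lies at chr17:29090868-29090978 on the plus strand, the Ccng1 stretch at chr11:40755422-40755536 on the minus strand and the Mdm2 stretch at chr10:117710895-117711004 on the minus strand.
Cdkn1a: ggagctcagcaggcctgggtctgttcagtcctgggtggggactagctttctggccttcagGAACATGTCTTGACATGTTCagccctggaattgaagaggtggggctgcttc
Ccng1: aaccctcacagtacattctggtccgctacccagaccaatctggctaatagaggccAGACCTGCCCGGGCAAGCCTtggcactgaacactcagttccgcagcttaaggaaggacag
Mdm2: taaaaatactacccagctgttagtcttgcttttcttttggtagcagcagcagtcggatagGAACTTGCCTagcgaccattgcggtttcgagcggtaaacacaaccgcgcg

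In Cdkn1a, 2 adjacent decamers stood 51 to 32 bases before the farther upstream of its 2 annotated starts, and 19 of 20 positions matched the motif. A further single decamer (ggactagctt), left in lower case in the printed stretch, stood upstream of that pair. In Ccng1, which encodes cyclin G1, a pair with 19 of 20 positions stood 195 to 176 bases before the start. Mdm2 held 1 decamer with all 10 positions, 186 to 177 bases before its start, and no such pair. A pair with at most 1 mismatch was found in 29 of 32851 RefSeq windows of this length (0.0883%), and a single decamer in 2745 of them (8.36%). None of the 13 member windows held TGATGNAAT, a motif bound by the stress factor ATF4 with its partners, on either strand; 317 of all windows (0.965%) did. These matches describe letters in the windows and were not tested as binding sites.

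Counts assigned to genes numbered 17540532 to 30050073 in mesenteric libraries and 23487946 to 32251097 in aortic libraries. Levels are given as CPM, counts scaled by library total, with TMM factors over all 26 libraries, fold changes as log2 differences with the standard error (SE) from edgeR, and a gene is called where its Benjamini-Hochberg adjusted p over all genes tested is below 0.05. Counts of called genes are those of edgeR where no other tool is named. The targeted gene went with the labels: Sphk1 averaged 3.76 ± 0.835 CPM in KO AngII and 13.4 ± 3.17 CPM in WT AngII mesenteric arteries (SD, n = 5 and 4), and 2.61 ± 0.735 CPM in KO AngII against 19.4 ± 6.12 CPM in WT AngII aortas. All 10 smooth muscle markers were detected in each group, and their summed level was 18700 to 47850 CPM over all libraries. A pair of mesenteric libraries stood apart from their groups in lymphocyte markers. The summed level of 10 such markers was 1383 CPM in KO AngII replicate 3 and 403.4 CPM in WT AngII replicate 1. It was 38.8 to 539.6 CPM in the other 4 KO AngII libraries, 29.6 to 56.0 CPM in the other 3 WT AngII libraries and 48.3 to 154.5 CPM in the 4 WT sham libraries. In the mesenteric arteries KO AngII replicates 2, 3 and 4 and WT AngII replicate 1 also had 11.4 to 14.7% of records not aligned, against at most 2.52% in every other library. For some results that involve these libraries values without them are also given, and for others only values with them.

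Ccng1 was the most abundant member and Cdkn2a the least abundant in every group, on a scale of mean CPM per kb of exon, which allows genes of different length to be compared. Ccng1 stood at 40.1 ± 5.21, 35.3 ± 1.55 and 30.6 ± 1.60 CPM per kb in mesenteric KO AngII, WT AngII and WT sham (SD), and at 50.4 ± 2.53, 43.1 ± 4.34 and 32.4 ± 1.47 CPM per kb in aortic KO AngII, WT AngII and WT sham. Cdkn1a was second of the 10 in all 4 AngII groups. In WT sham it was number 3 in mesenteric arteries (mean CPM 46.3 ± 6.61, SD) and number 4 in aorta (mean CPM 41.2 ± 4.91, SD). Per kb it then lay within the spread of Mdm2, at 12.7 ± 1.74 CPM per kb in mesenteric arteries and 11.5 ± 0.545 CPM per kb in aorta. Cdkn1b, the gene of p27, held 16.1 to 23.9 CPM per kb over the group means, Cdkn1c, the gene of the imprinted inhibitor p57, 8.03 to 13.5, and Cdkn2c, the gene of p18, 4.03 to 8.94. Sesn2, Cdkn2b and Gdf15 were at 0.304 to 3.76 CPM per kb in the group means.

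**Figure D1:**
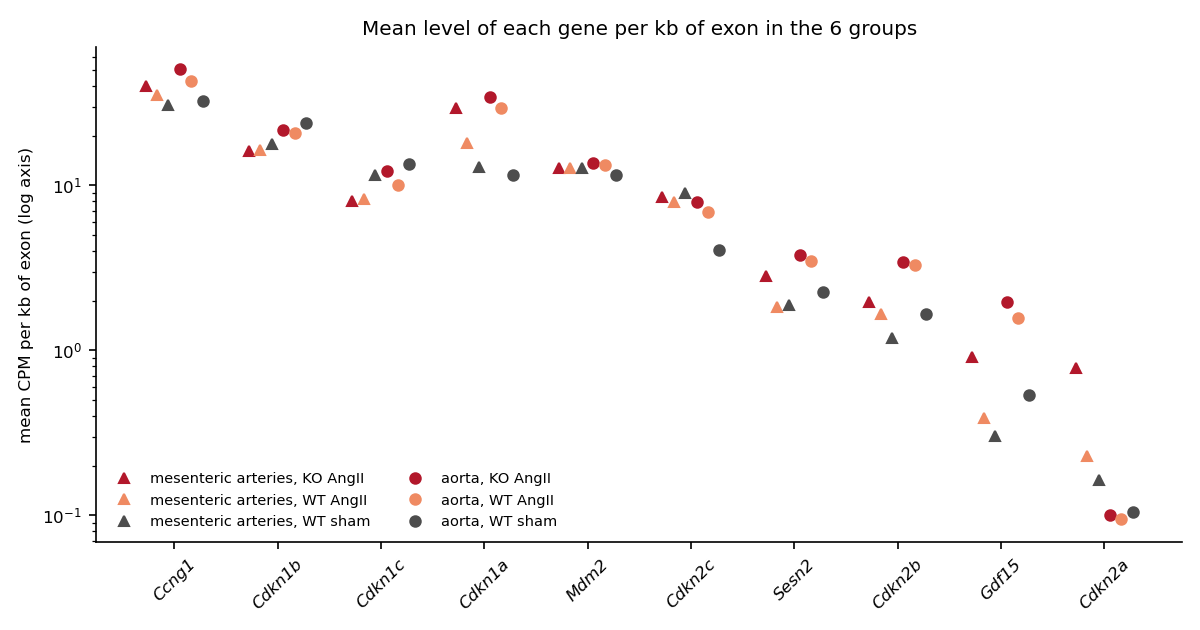
Mean CPM per kb of exon on a log axis for the 10 genes, ordered by the aortic WT sham level, with 1 point per group (triangles, mesenteric arteries; circles, aorta; colours, KO AngII, WT AngII and WT sham). Ccng1 tops each group, at 30.6 to 50.4 CPM per kb, and Cdkn2a is last in each, at 0.0943 to 0.778 CPM per kb.

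AngII in mice with intact Sphk1 raised both CDK inhibitors and p53 targets in the aorta. Of the 9 members tested, edgeR called 6 higher and none lower: Cdkn1a, Cdkn2b, Cdkn2c, Ccng1, Sesn2 and Gdf15 rose, and Cdkn1b, Cdkn1c and Mdm2 were not called. DESeq2 called the same 6 and Mdm2 higher, and limma voom with quality weights called those 7 higher and Cdkn1b lower (-0.23 ± 0.0640, adjusted p = 0.0111). In this comparison 25.5% of all 16863 genes tested were called, and 14.7% of all were called higher in WT AngII. The median log2 fold change was 0.62 over the 9 members and 0.00 over all genes. Cdkn2a did not pass the filter on low counts in the aorta.

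Cdkn1a, which encodes p21, had 110.7, 109.1, 96.6 and 100.1 CPM in the 4 WT AngII aortas, against 42.8, 44.98, 43.1 and 34.0 CPM in the 4 WT sham aortas. The groups were far apart, at 96.6 CPM in the lowest WT AngII library and 44.98 CPM in the highest WT sham library. The log2 difference was 1.32 ± 0.0932 (edgeR adjusted p = 2.08e-06). Cdkn1b had 114.1, 92.5, 83.7 and 89.7 CPM in WT AngII and 112.0, 97.9, 109.9 and 114.9 CPM in WT sham aortas. These groups overlapped through WT AngII replicate 1, and the log2 difference was -0.21 ± 0.0869 (edgeR adjusted p = 0.0949). Without that library it was -0.31 ± 0.0710 (edgeR adjusted p = 0.00630), over a range of 0.00630 to 0.220 across 21 alternatives. Cdkn1c spread from 11.3 to 29.8 CPM over the WT AngII aortas, against 22.9 to 30.7 CPM over the WT sham aortas. Its log2 difference was -0.43 ± 0.218 (edgeR adjusted p = 0.169), and -0.67 ± 0.186 without the same library (edgeR adjusted p = 0.0203, range over 21 alternatives 0.0203 to 0.303).

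The INK4 genes Cdkn2b and Cdkn2c, inhibitors of CDK4 and CDK6, both rose. Cdkn2b (p15) had 4.61, 4.29, 4.73 and 4.78 CPM in WT AngII aortas, against 2.08, 2.99, 2.22 and 1.90 CPM in WT sham aortas. The 4 WT AngII libraries lay within 0.5 CPM of each other, all above the WT sham libraries, with a log2 difference of 0.99 ± 0.213 (edgeR adjusted p = 0.00363). Cdkn2c (p18) had 25.9, 16.8, 17.2 and 14.5 CPM in WT AngII aortas, against 9.88, 9.18, 10.6 and 13.7 CPM in WT sham aortas. The groups did not overlap, though WT AngII replicate 4 was close to WT sham replicate 4, and the log2 difference was 0.77 ± 0.188 (edgeR adjusted p = 0.00852). Cdkn2a, which lies beside Cdkn2b on chromosome 4, had 12 counts in all over the 4 WT AngII aortas and 14 over the 4 WT sham aortas. KO AngII aortas held 0 to 8 counts, and the 0 in KO AngII replicate 4 allows up to 3 counts, or 0.102 CPM, covering counting error only. No difference in Cdkn2a was detectable in the aorta at this depth.

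Among the p53 targets, Gdf15, a secreted stress cytokine of the TGF-beta superfamily, had 2.32, 1.79, 3.30 and 4.30 CPM in WT AngII aortas, against 1.16, 0.491, 1.00 and 1.34 CPM in WT sham aortas. The groups did not overlap, and its log2 difference of 1.53 ± 0.336 (edgeR adjusted p = 0.00409) was the widest in standard error of the 6 that rose. Sesn2, a leucine sensor that restrains mTORC1, had 13.9, 12.0, 12.1 and 10.6 CPM in WT AngII and 6.37, 8.31, 8.08 and 8.68 CPM in WT sham aortas, without overlap. Its log2 difference was 0.62 ± 0.128 (edgeR adjusted p = 0.00275). Ccng1 had 152.0, 167.4, 130.7 and 154.7 CPM in WT AngII and 117.7, 106.2, 114.9 and 116.0 CPM in WT sham aortas, again without overlap, with a log2 difference of 0.40 ± 0.0786 (edgeR adjusted p = 0.00201). Mdm2, the ubiquitin ligase that removes p53, had 69.0, 68.6, 59.0 and 74.2 CPM in WT AngII and 59.2, 54.8, 58.7 and 61.4 CPM in WT sham aortas. One WT AngII library lay among the WT sham values, and the log2 difference of 0.20 ± 0.0699 was not called (edgeR adjusted p = 0.0513). Without WT AngII replicate 3 it was 0.25 ± 0.0584 (edgeR adjusted p = 0.00685), and it was called by DESeq2 (adjusted p = 0.0492) and limma voom (adjusted p = 0.00944), with a range of 0.00685 to 0.472 over 21 alternatives. Each of the 6 genes that rose had an exact permutation p of 0.0286 (two-sided), and 4 against 4 libraries can give none smaller. Any gene whose groups do not overlap reaches that p. Groups apart with WT AngII higher were found in 13% of all genes in this aortic comparison.

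Markers of other cells and of division moved with AngII in the aorta. The summed level of 10 fibroblast markers was 23840 to 53960 CPM in WT AngII and 10370 to 11660 CPM in WT sham aortas, that of 10 macrophage markers 711 to 903 CPM and 493 to 651 CPM, and that of 12 proliferation markers 52.3 to 90.6 CPM and 10.9 to 14.8 CPM. By edgeR 6 of the 10 fibroblast markers were called higher, with a median log2 difference of 0.74 over the 10. The same was so for 9 of the 10 macrophage markers (median 0.65) and all 12 proliferation markers (median 2.33). Of 10 smooth muscle markers 2, Myh11 and Lmod1, were called lower and 0 higher (median -0.48). Of 10 endothelial markers 1 was called higher and 2 lower (median -0.25), and of 10 adipocyte markers 1 higher and 0 lower (median 0.51). Over all genes 14.7% were called higher and 10.8% lower. WT AngII replicate 1 had the highest fibroblast sum, 53960 CPM, and the lowest smooth muscle sum, 18700 CPM, of the 13 aortas. The part of these shifts in the changes of the members was not tested. In such bulk tissue, fewer cells of a type and less RNA per cell cannot be told apart. Scaling by library size alone moved the median of all genes by -0.13 (log2) in this comparison, and by -0.10 in KO AngII against WT sham aortas. The 6 rises were called under it too, and Cdkn1b was then also called lower (-0.33 ± 0.0967, edgeR adjusted p = 0.0174). The split of all called genes was then 1747 higher and 3729 lower, against 2475 higher and 1826 lower with TMM scaling.

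**Figure D2:**
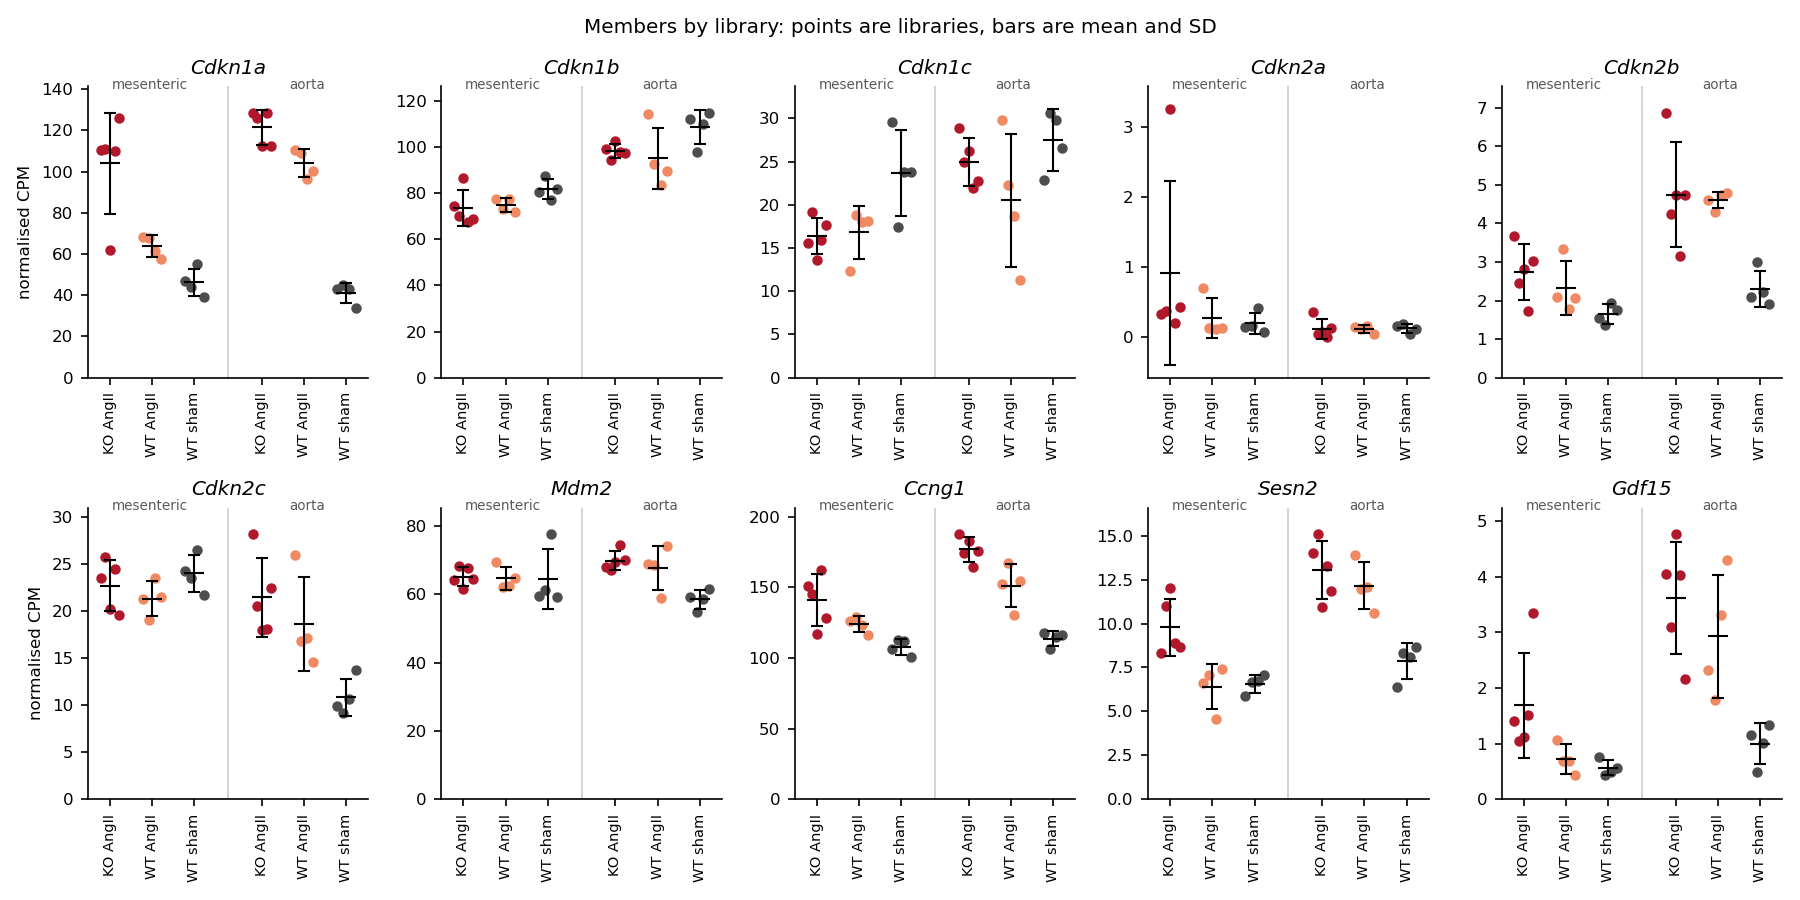
Normalised CPM of each of the 10 genes in every library (points), with mean and SD (bars), for KO AngII, WT AngII and WT sham in mesenteric arteries (left of the grey line) and aorta (right). Aortic Cdkn1a is 96.6 to 128.7 CPM in all AngII libraries and 34.0 to 44.98 CPM in WT sham, and mesenteric KO AngII replicate 3 stands apart in Cdkn1a (61.8 CPM) and in Cdkn2a (3.26 CPM).

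In mesenteric arteries, AngII with intact Sphk1 gave no call among the 10 members by edgeR, with 3 of them (Cdkn1a, Cdkn1c and Ccng1) at an unadjusted p below 0.05. DESeq2 called none, and limma voom called Cdkn1a alone. The background was low as well, since 0.183% of 17513 genes were called. An unadjusted p below 0.05 was reached by 1864 of the 17513 genes. Both values are also the background for the other gene lists in this comparison. The median log2 fold change was 0.10 over the members and 0.00 over all genes. Cdkn1a had 68.4, 67.9, 61.6 and 57.7 CPM in WT AngII, against 46.8, 44.2, 55.1 and 39.3 CPM in WT sham mesenteric arteries. The groups did not overlap, but the log2 difference of 0.46 ± 0.173 (95% interval 0.09 to 0.84) was not called (edgeR adjusted p = 0.371; exact two-sided permutation p = 0.0286 for the gene alone). With limma voom it was 0.53 ± 0.110 (adjusted p = 0.0346, range over 23 alternatives 0.0346 to 0.642). Ccng1 had 126.4, 129.2, 123.3 and 116.5 CPM in WT AngII and 106.0, 112.5, 111.7 and 100.4 CPM in WT sham mesenteric arteries, also without overlap. Its log2 difference was 0.20 ± 0.0910 (edgeR adjusted p = 0.464). Groups apart with WT AngII higher were found in 4.69% of all genes in this comparison.

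The other mesenteric members showed smaller or less regular differences. Cdkn1c had 12.3, 18.8, 18.0 and 18.1 CPM in WT AngII, against 29.6, 17.5, 23.8 and 23.8 CPM in WT sham mesenteric arteries. A single WT sham library lay among the WT AngII values, and the log2 difference was -0.50 ± 0.166 (edgeR adjusted p = 0.315). Cdkn2b had 1.78 to 3.34 CPM in WT AngII and 1.36 to 1.94 CPM in WT sham (log2 difference 0.49 ± 0.263, edgeR adjusted p = 0.535). Cdkn2c, called in the aorta, had 18.99 to 23.5 CPM in WT AngII and 21.7 to 26.5 CPM in WT sham mesenteric arteries (-0.18 ± 0.102, edgeR adjusted p = 0.562). Gdf15 was at 0.430 to 1.07 CPM in WT AngII and 0.440 to 0.754 CPM in WT sham. Sesn2 and Mdm2 had log2 differences of -0.04 ± 0.172 and 0.00 ± 0.0865.

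The AngII effect itself was compared between the vessel beds in a fit of all 26 libraries, in which 2.34% of 18520 genes were called. For 2 of the 10 members the effect was lower in mesenteric arteries than in aorta. The difference was -0.87 ± 0.205 for Cdkn1a (edgeR adjusted p = 0.0248) and -0.95 ± 0.227 for Cdkn2c (edgeR adjusted p = 0.0267). DESeq2 called the same 2, and limma voom called them and Sesn2 (-0.68 ± 0.199, adjusted p = 0.0408, range over 35 alternatives 0.0408 to 0.229). By edgeR the difference for Sesn2 was -0.67 ± 0.211 (edgeR adjusted p = 0.0993) and for Gdf15 -1.20 ± 0.550 (edgeR adjusted p = 0.294). The calls of Cdkn1a and Cdkn2c depended on single libraries. Both genes lost the call without aortic WT AngII replicate 1 (edgeR adjusted p = 0.0544 for Cdkn1a and 0.0610 for Cdkn2c) and without mesenteric WT sham replicate 3 (0.0607 and 0.0582). Cdkn1a also lost it without mesenteric WT AngII replicate 4 (0.0517) or aortic WT sham replicate 4 (0.0705), and Cdkn2c without mesenteric WT AngII replicate 1 (0.0505) or aortic WT sham replicate 1, 2 or 3 (0.0515 to 0.0607). Over 35 alternatives the adjusted p ran from 0.000644 to 0.0705 for Cdkn1a and from 0.00368 to 0.0656 for Cdkn2c, and the difference stayed between -0.94 and -0.76 for Cdkn1a and between -1.05 and -0.75 for Cdkn2c. The identifiers of the mesenteric tables carry version numbers and those of the aortic tables do not, so the tables of the vessel beds may come from separate counting runs, and the part of that in tissue differences was not tested.

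**Figure D3:**
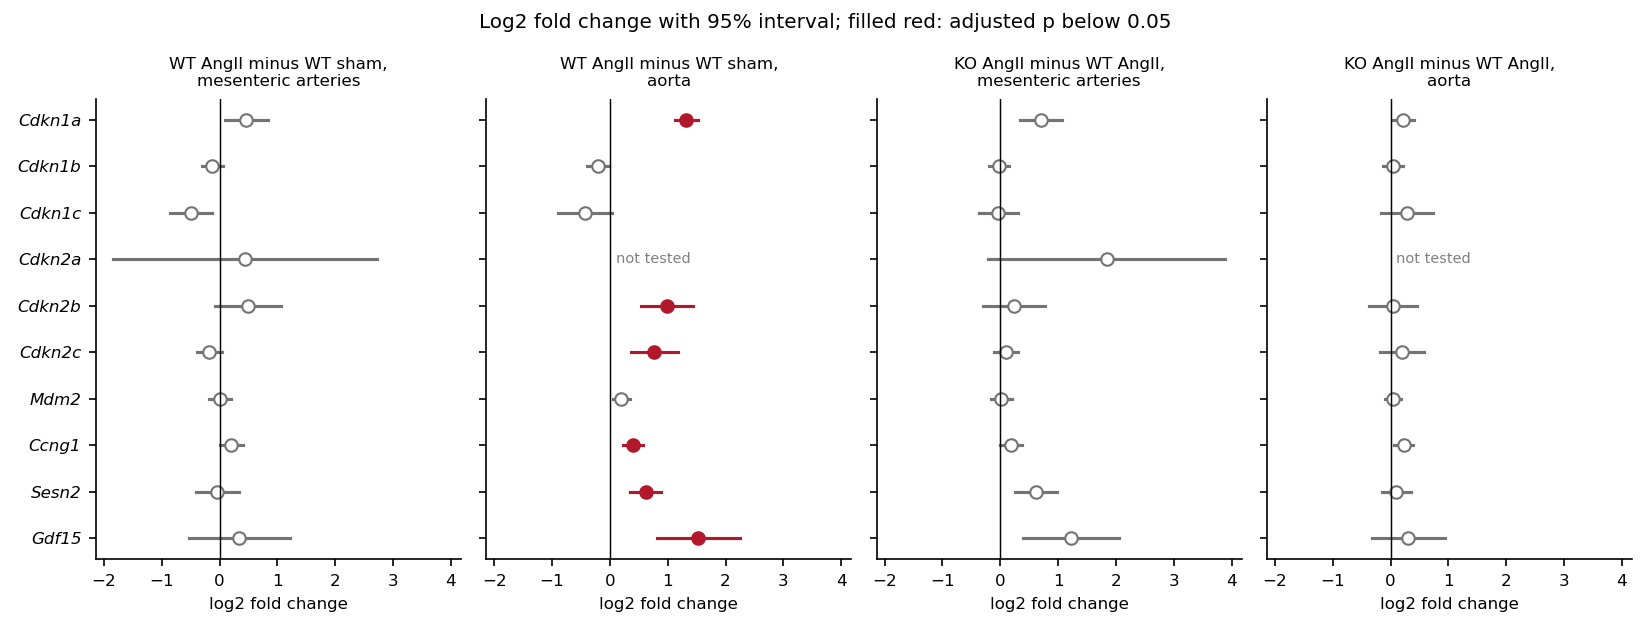
Log2 fold change (points) with its 95% interval (lines) for the 10 genes in WT AngII minus WT sham and KO AngII minus WT AngII, each in mesenteric arteries and aorta; filled red marks an edgeR adjusted p below 0.05. The 6 called values all lie in WT AngII minus WT sham in the aorta, and Cdkn2a was not tested there.

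Deletion of Sphk1 under AngII gave no call among the members in either vessel bed by edgeR, and none by DESeq2 or limma voom. In mesenteric arteries 4 of 10 members (Cdkn1a, Ccng1, Sesn2 and Gdf15) had an unadjusted p below 0.05, and in aorta 2 of 9 (Cdkn1a and Ccng1). So did 872 of all 17513 genes tested in mesenteric arteries and 608 of all 16863 in aorta. These counts are also the background for the other gene lists under the deletion. The only gene called by edgeR was Sphk1 itself in each bed, 0.00571% of 17513 genes in mesenteric arteries and 0.00593% of 16863 in aorta. Over all genes DESeq2 called 1 higher and 1 lower in mesenteric arteries and 4 higher and 2 lower in aorta, and limma voom 1 lower in each. The median log2 difference was 0.22 over the mesenteric members and 0.20 over the aortic members tested, against 0.02 and -0.01 over all genes. KO AngII and WT AngII are compared here, and the WT AngII libraries are the same ones that entered the AngII effect.

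Cdkn1a in mesenteric arteries had 110.7, 111.2, 61.8, 110.1 and 126.0 CPM in KO AngII, against 68.4, 67.9, 61.6 and 57.7 CPM in WT AngII. In KO AngII, 4 libraries stood above every WT AngII library, and replicate 3 stood among them. The log2 difference was 0.70 ± 0.166 (95% interval 0.34 to 1.06, edgeR adjusted p = 0.798; exact two-sided permutation p = 0.0317 for the gene alone). Without KO AngII replicate 3, the group mean was 114.5 ± 7.68 CPM (SD, n = 4) and the difference 0.84 ± 0.101, which was called (edgeR adjusted p = 0.0243); Cdkn1a was then the 1 gene called higher among 17339 tested. Without that library and WT AngII replicate 1 the difference was 0.88 ± 0.112 (edgeR adjusted p = 0.0756), and without the 4 libraries with most unaligned records, chosen after the data were seen, it was 0.93 ± 0.133 (edgeR adjusted p = 0.0298). The adjusted p ranged from 0.0243 to 0.973 over 23 alternatives.

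KO AngII replicate 3 differed from the rest of its group in other measures as well. It held 1383 CPM of lymphocyte markers, 1664 CPM of macrophage markers against 284.9 to 732.0 CPM in the other 4, and 22140 CPM of smooth muscle markers against 31710 to 47850 CPM in the other 4. Its Sphk1 level, 4.61 CPM, lay within the 2.81 to 4.62 CPM of the other 4. Cdkn2a stood at 3.26 CPM there (82 counts) and at 0.193 to 0.418 CPM in the other KO AngII libraries, against 0.695 CPM in WT AngII replicate 1 and 0.116 to 0.132 CPM in the other 3 WT AngII libraries. KO AngII replicate 1, with 539.6 CPM of lymphocyte markers, had 0.331 CPM of Cdkn2a and 110.7 CPM of Cdkn1a. The fitted log2 difference of Cdkn2a, 1.84 ± 0.942 (edgeR adjusted p = 0.798), rested on replicate 3, and without it the gene did not pass the filter on low counts. The part of lymphoid RNA in these levels was not tested.

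**Figure D4:**
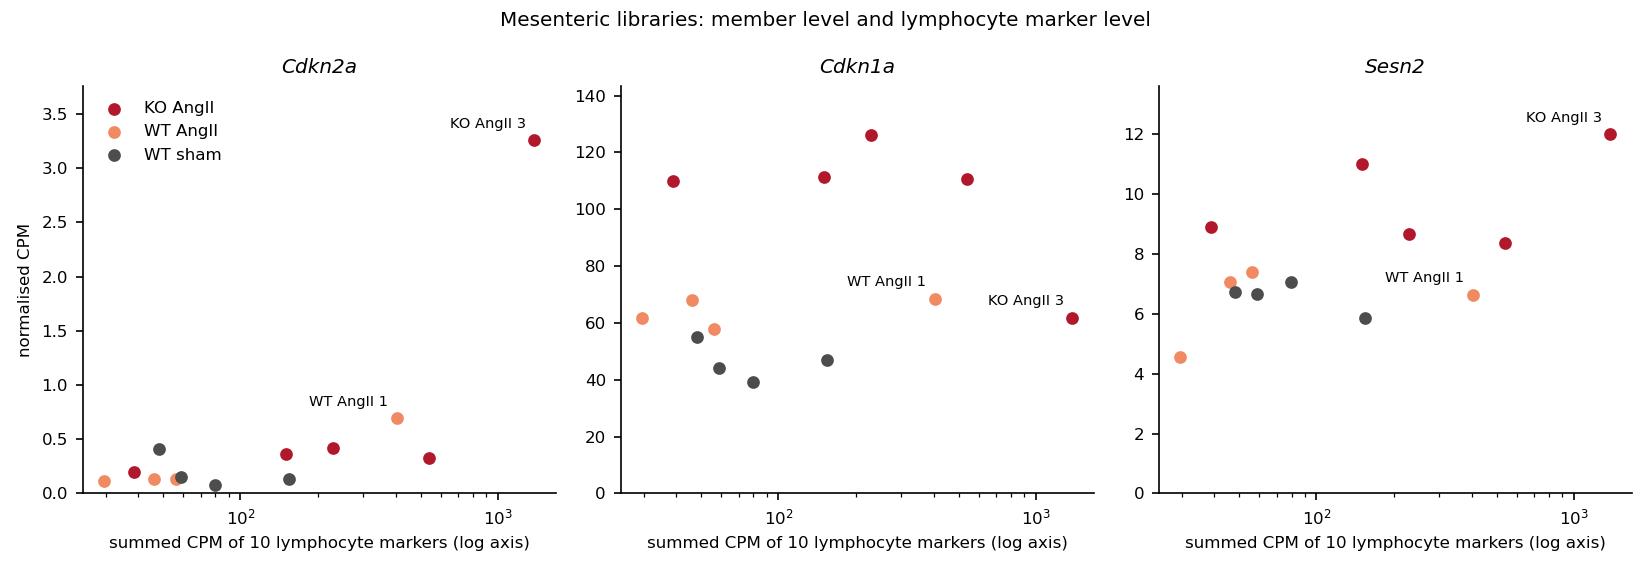
Normalised CPM of Cdkn2a, Cdkn1a and Sesn2 (vertical axes) against the summed CPM of 10 lymphocyte markers (log axis) in the 13 mesenteric libraries, coloured by group. KO AngII replicate 3, at 1383 CPM of markers, has the highest Cdkn2a (3.26 CPM), the lowest Cdkn1a of its group (61.8 CPM) and the highest Sesn2 (12.0 CPM).

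Sesn2 and Gdf15 leaned the same way in mesenteric arteries without a call. Sesn2 had 8.35, 11.01, 12.0, 8.91 and 8.66 CPM in KO AngII, against 6.63, 7.04, 4.55 and 7.39 CPM in WT AngII. All 5 KO AngII libraries stood above all 4 WT AngII libraries, with a log2 difference of 0.62 ± 0.164 (95% interval 0.26 to 0.98, edgeR adjusted p = 0.798; exact two-sided permutation p = 0.00794, the smallest that 5 against 4 allow). Of all 17513 genes, 0.577% likewise had groups apart with KO AngII higher. Gdf15 had 1.41, 1.05, 1.11, 1.51 and 3.35 CPM in KO AngII, against 1.07, 0.695, 0.695 and 0.430 CPM in WT AngII. The groups overlapped at their edges, KO AngII replicate 5 stood far above the rest, and the log2 difference was 1.22 ± 0.382 (edgeR adjusted p = 0.798). Ccng1 had 151.1, 145.5, 116.7, 162.5 and 128.1 CPM in KO AngII, against 116.5 to 129.2 CPM in WT AngII mesenteric arteries (0.19 ± 0.0865, edgeR adjusted p = 0.798). Mdm2, at 61.6 to 68.4 CPM in KO AngII and 62.0 to 69.5 CPM in WT AngII, differed by 0.02 ± 0.0821 (95% interval -0.16 to 0.20). For Cdkn1b, Cdkn1c, Cdkn2b and Cdkn2c the mesenteric differences lay between -0.03 and 0.24.

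In the aorta, Cdkn1a had 128.7, 125.8, 112.4, 128.5 and 112.5 CPM in KO AngII, against 110.7, 109.1, 96.6 and 100.1 CPM in WT AngII. All KO AngII libraries stood above the WT AngII libraries, the nearest by under 2 CPM, and the log2 difference was 0.22 ± 0.0867 (95% interval 0.04 to 0.41, edgeR adjusted p = 0.981; exact two-sided permutation p = 0.0238 for the gene alone). Of all 16863 genes, 0.492% likewise had groups apart with KO AngII higher. Ccng1 had 187.7, 174.5, 182.6, 164.3 and 175.5 CPM in KO AngII, against 152.0, 167.4, 130.7 and 154.7 CPM in WT AngII aortas (0.23 ± 0.0746, edgeR adjusted p = 0.981). A single KO AngII library lay below the highest WT AngII library. For the other 7 tested members the aortic differences lay between 0.04 and 0.31, each with an interval that includes 0. Cdkn1c had 22.0 to 28.9 CPM in KO AngII and 11.3 to 29.8 CPM in WT AngII aortas, and Gdf15 2.17 to 4.77 CPM and 1.79 to 4.30 CPM. The deletion effect was not shown to differ between the beds for any member by edgeR, DESeq2 or limma voom. By edgeR 0.00% of all genes were called (DESeq2 called 4 higher and 11 lower, limma voom none). Cdkn1a (0.48 ± 0.194) and Sesn2 (0.51 ± 0.199) had an unadjusted p below 0.05, as did 749 of all 18520 genes tested. The edgeR adjusted p was 0.953 for Cdkn1a and for Sesn2.

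Mice with the deletion and AngII were also set against WT sham mice, which compares both changes at once and shares its sham libraries with the AngII effect. In the aorta edgeR called 7 of the 9 tested members higher and none lower, where 30.8% of all genes were called. DESeq2 called the same 7, and limma voom called them and Cdkn1b, the last lower. Cdkn1a rose by 1.54 ± 0.0905 (edgeR adjusted p = 2.06e-07), Gdf15 by 1.84 ± 0.324, Cdkn2b by 1.03 ± 0.205, Cdkn2c by 0.97 ± 0.180, Sesn2 by 0.72 ± 0.122, Ccng1 by 0.62 ± 0.0753 and Mdm2 by 0.24 ± 0.0665 (edgeR adjusted p from 3.85e-05 to 0.0133). Mdm2 had 67.9, 67.2, 69.6, 74.3 and 70.0 CPM in KO AngII aortas, against 54.8 to 61.4 CPM in WT sham aortas. It was not called without WT sham replicate 2 (edgeR adjusted p = 0.0566) or with library size alone as the scaling (0.112, range over 21 alternatives 0.00176 to 0.112). Cdkn1b and Cdkn1c differed by -0.16 ± 0.0823 and -0.16 ± 0.206 and were not called by edgeR. Cdkn1b was called lower in 4 of 21 alternatives: by limma voom (-0.18 ± 0.0574, adjusted p = 0.0221), with library size alone (0.0371), in a fit of only these 2 groups (0.0393) and without WT AngII replicate 1 (0.0499), over a range of 0.0221 to 0.270.

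In mesenteric arteries Cdkn1a was the 1 member called of 10, against 0.708% of all genes. KO AngII libraries held 61.8 to 126.0 CPM of Cdkn1a and WT sham libraries 39.3 to 55.1 CPM, a log2 difference of 1.17 ± 0.168 (edgeR adjusted p = 0.0109). The call was lost without WT sham replicate 2 (edgeR adjusted p = 0.0658) or replicate 4 (0.0602), in a fit of only these 2 groups (0.0538) and with the replicate number as a block (1.08 ± 0.188, edgeR adjusted p = 0.0897), and the difference was 1.30 ± 0.102 without KO AngII replicate 3 (0.000529, range over 23 alternatives 1.97e-08 to 0.0897). Ccng1 (0.39 ± 0.0868, edgeR adjusted p = 0.0631), Gdf15 (1.57 ± 0.387, edgeR adjusted p = 0.0819) and Sesn2 (0.58 ± 0.164, edgeR adjusted p = 0.114) were not called. Every KO AngII library of each stood above every WT sham library, as was so for 3.10% of all genes. Ccng1 was called without KO AngII replicate 3 (0.45 ± 0.0791, edgeR adjusted p = 0.0243, range over 23 alternatives 0.00134 to 0.198). Gdf15 was called without the 4 libraries with most unaligned records (2.06 ± 0.393, edgeR adjusted p = 0.0358). By limma voom Gdf15 was called too (1.525 ± 0.371, adjusted p = 0.0477), over a range of 0.0101 to 0.227 in 23 alternatives. DESeq2 called 5 members here, Cdkn1a, Ccng1, Sesn2 and Gdf15 higher and Cdkn1c lower. Cdkn1c had 13.6 to 19.2 CPM in KO AngII and 17.5 to 29.6 CPM in WT sham mesenteric arteries (edgeR log2 difference -0.53 ± 0.156, edgeR adjusted p = 0.127).

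Markers of other cells differed between the vessel beds along with the members. All 10 endothelial markers were called higher in mesenteric arteries than in aortas in each of the 3 groups. Their summed level was 1967 to 3455 CPM in mesenteric and 646.8 to 1102 CPM in aortic KO AngII libraries, and 3944 to 4292 CPM in mesenteric and 986.2 to 1113 CPM in aortic WT sham libraries. Of 9 tested gut and pancreas markers, 9 were called higher in mesenteric arteries in KO AngII and in WT AngII and 7 in WT sham. Their summed level spread widely among mesenteric libraries, from 111.8 to 36920 CPM in KO AngII, 26.62 to 54450 CPM in WT AngII and 45.90 to 23760 CPM in WT sham, against at most 21.31 CPM in any aorta, where 1 to 3 of the 10 markers were at 0 throughout a group. Of 8 Schwann cell and neuron markers 6 to 7 were called higher in mesenteric arteries and 1 lower in each group. Their part in the differences between the beds was not tested.

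Between the vessel beds in WT sham, 1 of the 10 members was called higher in mesenteric arteries and 1 lower. Of all genes 20.7% were called higher and 17.7% lower (38.4% in all), so the members were called no more often than genes at large. Cdkn2c had 24.2, 23.5, 26.5 and 21.7 CPM in mesenteric arteries, against 9.88, 9.18, 10.6 and 13.7 CPM in aortas. No mesenteric library came near an aortic one, and the log2 difference was 1.15 ± 0.162 (edgeR adjusted p = 4.39e-06). Groups apart with mesenteric arteries higher were found in 22.7% of all genes in this comparison. Cdkn1b was lower in mesenteric arteries, at 76.9 to 87.3 CPM against 97.9 to 114.9 CPM in aortas (-0.41 ± 0.0829, edgeR adjusted p = 0.000340). After AngII with intact Sphk1, 6 members were lower in mesenteric arteries and none higher. Of all genes 19.1% were called lower and 21.3% higher (40.4% in all). The 6 members were Gdf15 (-2.02 ± 0.390), Cdkn2b (-0.99 ± 0.239), Sesn2 (-0.92 ± 0.150), Cdkn1a (-0.70 ± 0.145), Cdkn1b (-0.34 ± 0.0830) and Ccng1 (-0.29 ± 0.0848), with edgeR adjusted p from 2.94e-05 to 0.00915. Cdkn2c, at 18.99 to 23.5 CPM in mesenteric and 14.5 to 25.9 CPM in aortic WT AngII libraries, then overlapped between the beds.

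In KO AngII mice 6 members were lower in mesenteric arteries than in aortas, beside 20.8% of all genes. These members were Gdf15 (-1.11 ± 0.331), Cdkn2b (-0.79 ± 0.212), Cdkn1c (-0.60 ± 0.183), Cdkn1b (-0.42 ± 0.0743), Sesn2 (-0.41 ± 0.132) and Ccng1 (-0.33 ± 0.0758). Cdkn2a was higher (2.98 ± 0.835, edgeR adjusted p = 0.00522), beside 26.8% of all genes called higher and 47.6% called in all. The Cdkn2a call rested on mesenteric replicate 3, with 82 of the 116 mesenteric counts, against 14 counts in all over the 5 KO AngII aortas. In the fit of 26 libraries Cdkn2a passed the filter on low counts only through mesenteric libraries, as no aortic library held more than 8 counts. Because the filter kept it through the side called higher, no conclusion is drawn from that call. Without the 4 libraries with most unaligned records the Cdkn2a difference was 1.72 ± 0.779 (edgeR adjusted p = 0.0891). The range was 0.00174 to 0.0891 over the 31 of 35 alternatives that tested it. Without those 4 libraries, Cdkn1b, Ccng1 and Sesn2 were the 3 members still called. Cdkn1a, at 61.8 to 126.0 CPM in mesenteric arteries and 112.4 to 128.7 CPM in aortas of KO AngII mice, was not called (-0.23 ± 0.129, edgeR adjusted p = 0.157). Scaling by library size alone moved the median of all genes by 0.16 between the beds in WT AngII and by 0.20 in KO AngII. Cdkn1b and Ccng1 then lost their calls in WT AngII (edgeR adjusted p = 0.124 and 0.216), and Ccng1 and Sesn2 in KO AngII (0.0686 and 0.141).

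Other targets of p53 were taken as a list of 24 genes, all tested in both beds. After AngII with intact Sphk1, 9 of them rose in the aorta, 4 fell and 11 were not called, beside 14.7% of all genes called higher and 10.8% lower. DESeq2 called 9 higher and 5 lower, and limma voom 10 higher and 5 lower. The median log2 difference was 0.25 against 0.00 over all genes. The rises included the death gene Pmaip1 (Noxa, 2.26 ± 0.327, edgeR adjusted p = 0.000198), the polo-like kinase Plk2 (1.59 ± 0.210, 0.000149), the receptor Eda2r (1.43 ± 0.189, 0.000101) and the RNA-binding protein Zmat3 (0.64 ± 0.0863, 0.000110). The 4 that fell, Xpc (-0.56 ± 0.0921), Ddb2 (-0.48 ± 0.0806), Rrm2b (-0.47 ± 0.110) and Sesn1 (-0.26 ± 0.0707), comprise damage recognition proteins of nucleotide excision repair, a ribonucleotide reductase subunit and a relative of Sesn2. In mesenteric arteries none of the 24 was called by edgeR or limma voom, 4 had an unadjusted p below 0.05 and DESeq2 called 1, lower. The lowest p values there were those of Ppm1d (-0.27 ± 0.0729, edgeR adjusted p = 0.200) and Xpc (-0.22 ± 0.0747, edgeR adjusted p = 0.317). The AngII effect was lower in mesenteric arteries for Plk2 (-1.79 ± 0.285, edgeR adjusted p = 0.00101) and Plk3 (-0.99 ± 0.249, edgeR adjusted p = 0.0337), and for none of the other 22 was the difference called by edgeR, while limma voom called 7 of the 24.

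**Figure D5:**
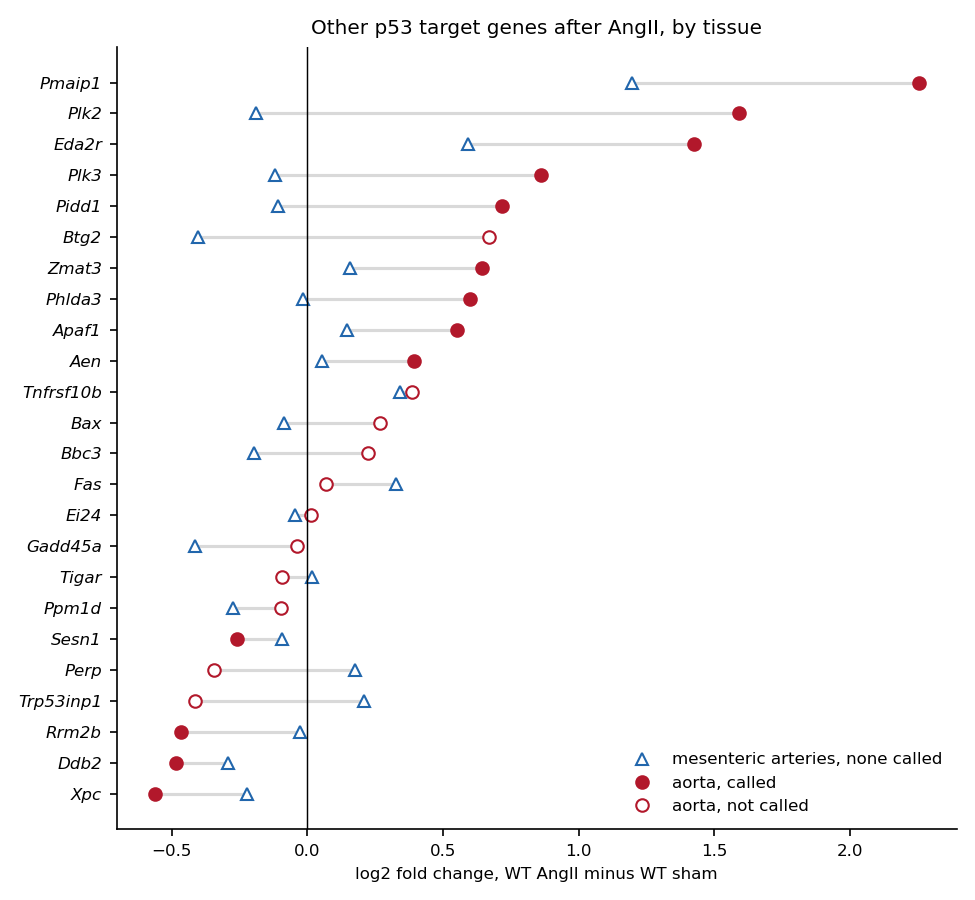
Log2 fold change of WT AngII minus WT sham for 24 other p53 targets, ordered by the aortic value (triangles, mesenteric arteries; circles, aorta; filled, edgeR adjusted p below 0.05). In the aorta 9 filled circles lie above 0 and 4 below, and no mesenteric triangle is filled.

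The deletion gave no call among these 24 genes in either bed by edgeR, DESeq2 or limma voom; 3 in mesenteric arteries and 1 in aorta had an unadjusted p below 0.05. In mesenteric arteries Bax, which opens the mitochondrial outer membrane, had 12.9 to 15.9 CPM in KO AngII and 10.96 to 13.2 CPM in WT AngII (0.27 ± 0.0843, edgeR adjusted p = 0.798). Pidd1, a p53-induced adaptor of caspase-2, differed by 0.63 ± 0.248 (edgeR adjusted p = 0.798). Ddb2 and Perp had the lowest p values in the aorta and were not called.

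Trp53, the gene of p53, was not called with AngII in either bed. It averaged 56.8 ± 4.64 CPM in WT AngII and 57.6 ± 4.33 CPM in WT sham mesenteric arteries (-0.02 ± 0.0978), and 54.9 ± 4.77 CPM in WT AngII against 54.5 ± 2.75 CPM in WT sham aortas (0.00 ± 0.0700; edgeR adjusted p = 0.958 and 0.973). Of 13 tested genes of the p53 family and its regulators, 1 rose and 2 fell in the aorta with AngII, a share near the 25.5% of all genes called there. Chek1, a checkpoint kinase of replication, rose (1.12 ± 0.266, edgeR adjusted p = 0.00686). Mdm4, the partner of Mdm2, and the ubiquitin ligase Rchy1 fell by 0.26 ± 0.0900 (edgeR adjusted p = 0.0467) and by 0.16 ± 0.0563 (edgeR adjusted p = 0.0441). None of the 13 was called in mesenteric arteries by edgeR, DESeq2 or limma voom, with 2 at an unadjusted p below 0.05.

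Some of the cyclins that these inhibitors restrain rose in the same aortas. Of 14 CDKs, cyclins and partners of the G1 phase, edgeR called 5 higher with AngII and none lower, DESeq2 5 higher and none lower, and limma voom 6 higher and 1 lower, beside 14.7% of all genes called higher and 10.8% lower by edgeR. The 5 of edgeR were Ccne1 (2.10 ± 0.259, edgeR adjusted p = 5.88e-05), Ccna2 (1.78 ± 0.244), Ccne2 (1.15 ± 0.275), Ccnd1 (0.62 ± 0.175) and Cdkn3. Ccne1, cyclin E1, averaged 1.30 ± 0.169 CPM in WT AngII and 0.292 ± 0.0809 CPM in WT sham aortas. The other 9, with the cyclins Ccnd2 and Ccnd3 among them, were not called. Ccna2, cyclin A2, was the 1 gene of the list that edgeR called in mesenteric arteries (DESeq2 and limma voom each called 2 higher), where it averaged 8.30 ± 1.46 CPM in WT AngII and 2.43 ± 0.173 CPM in WT sham (1.77 ± 0.273, edgeR adjusted p = 0.0218). The kinases Cdk2, Cdk4 and Cdk6 were not called by edgeR with AngII in either bed. Of 11 Rb and E2F proteins, which the INK4 and CIP/KIP proteins act on through the CDKs, 6 rose in the aorta and none fell, by each of the 3 tools and beside the same all-gene shares, led by E2f1 (1.20 ± 0.153), E2f3 (0.73 ± 0.110), E2f8 (2.40 ± 0.373) and Rbl1 (0.62 ± 0.128; edgeR adjusted p from 7.08e-05 to 0.00275). In mesenteric arteries none of the 11 was called by edgeR or limma voom, 2 had an unadjusted p below 0.05 and DESeq2 called 1. Of 12 proliferation markers edgeR called all higher in the aorta and 4 higher in mesenteric arteries, where DESeq2 called 10 and limma voom 11 and all 12 had an unadjusted p below 0.05, with median log2 differences of 1.71 in mesenteric arteries and 2.33 in aorta. For none of them was the AngII effect called different between the beds by edgeR, DESeq2 or limma voom.

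Sesn2 and Gdf15 are also targets of the stress factor ATF4, so a list of 16 genes of that response was set beside them. In the aorta 14 were tested after AngII, of which 8 rose and 1 fell, beside 14.7% of all genes called higher and 10.8% lower; DESeq2 called 9 higher and 1 lower, and limma voom 10 and 1. Psat1, an enzyme of serine synthesis, rose by 1.40 ± 0.127 (edgeR adjusted p = 6.39e-06), Asns, asparagine synthetase, by 1.25 ± 0.255 (0.00280), Nupr1, a stress cofactor, by 1.18 ± 0.142 (5.15e-05) and Aldh18a1, an enzyme of proline synthesis, by 0.81 ± 0.121 (0.000264). Trib3, which dampens that response, fell by 0.59 ± 0.200 (edgeR adjusted p = 0.0436). In mesenteric arteries none of 16 was called by edgeR, 2 had an unadjusted p below 0.05 and DESeq2 and limma voom each called 1, lower. Trib3 had the lowest p there (-0.99 ± 0.247, edgeR adjusted p = 0.167). Psat1 averaged 23.6 ± 2.77 CPM in WT AngII and 27.1 ± 3.19 CPM in WT sham mesenteric arteries, and 14.0 ± 1.51 CPM in WT AngII against 5.24 ± 0.801 CPM in WT sham aortas. Its AngII effect was lower in mesenteric arteries (-1.61 ± 0.186, edgeR adjusted p = 0.000102).

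Cdkn1c is imprinted, and 14 imprinted growth genes were listed for it. After AngII 12 were tested in the aorta, of which 5 rose and 1 fell, beside the same all-gene shares of 14.7% and 10.8%; DESeq2 called 6 higher and 1 lower, and limma voom 5 and 1. The non-coding RNA Meg3 rose by 1.47 ± 0.195 (edgeR adjusted p = 0.000124), the adaptor Grb10 by 0.88 ± 0.189 (0.00448) and Slc22a18, a transporter gene of the same cluster as Cdkn1c, by 0.88 ± 0.203 (0.00546), and Peg3 fell by 0.46 ± 0.123 (0.0142). In mesenteric arteries none of the 13 tested was called by edgeR, DESeq2 or limma voom, and none had an unadjusted p below 0.05. The deletion gave no call in the p53 regulator, G1, E2F, ATF4 and imprinted lists in either bed by edgeR, DESeq2 or limma voom, with 0 to 2 genes of each list at an unadjusted p below 0.05.

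The genes with the profile nearest to each member were found by the root mean square difference of centred log2 CPM over the 26 libraries, among 18519 genes. For Cdkn1a they were the predicted gene Gm37795 (0.340), Ddias (0.352), a DNA damage-induced suppressor of apoptosis, and Enpp1 (0.367), which makes pyrophosphate. For Cdkn2b they were Papss2 (0.308), Crlf2 (0.315) and Glb1 (0.316), the gene of lysosomal beta-galactosidase. Those of Cdkn2c were Hs2st1 (0.176), Rai14 (0.190) and Lpar1 (0.196), and those of Gdf15 Rcan1 (0.587), Fn1 (0.603) and Cdh11 (0.609). Cdkn1b lay nearest to Nr3c1, the glucocorticoid receptor gene, Cdkn1c to Fndc4 (0.229), Mdm2 to Tor1aip2 (0.078), Ccng1 to Tstd2 (0.144) and Sesn2 to Tbc1d31 (0.227). The 26 libraries share the difference between the beds and the difference between AngII and sham, and a low value means only a like profile. No member was among the 3 nearest of another member.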

How the data were processed

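Libraries of mRNA (PureLink RNA Micro, NEBNext Ultra II Directional, NovaSeq, per the labels' protocols) were analysed from 26 samples. The deposited values are raw read counts per Ensembl gene that the authors made with cutadapt, HISAT2 and HTSeq on GRCm39, per the submitters' processing notes; the annotation release and strand setting are not given in the sources used here, so a gene and an overlapping antisense gene may share reads. Symbols were found for 52081 of the 55414 shared identifiers. The summary lines of the tables, left out of all tests, held, as shares of records, 0.572 to 14.7% not aligned, 6.64 to 11.1% outside features, 4.82 to 12.986% aligned repeatedly, 1.96 to 3.56% of low quality and 1.17 to 1.61% ambiguous.

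Each vessel bed was fitted with its 3 groups by edgeR 4.0.16 (R 4.3.3; filterByExpr with a minimum count of 10, TMM, robust quasi-likelihood F test); contrasts between beds used 1 fit of 26 libraries. A gene is called at a Benjamini-Hochberg adjusted p below 0.05 over all genes tested. The SE is the log2 difference divided by the square root of F, and CPM are plotted and tested alone as log2 values with a prior count of 2 where a permutation p is given. Permutation tests were exact and two-sided. Levels per kb used GENCODE exon lengths of GRCm38, and promoters RefSeq GRCm38.p6. The alternatives comprised another tool (DESeq2 1.42.0 or voom of limma 3.58.1), another scaling (RLE factors or library size alone), another filter (none, or a CPM of 1), a replicate block, a fit of only the 2 groups compared, and libraries left out. Scripts were tested on simulated data.

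Members and lists were chosen with earlier results of these data known. Named genes are all members, Sphk1, up to 4 called genes per list and comparison by adjusted p (or 2 by p where none was called), and the 3 nearest profiles of each member that was tested in both beds; further genes of small counts were named after their values were seen. Samples were treated as unpaired. No 2 libraries of a group were copies (chi-square per degree of freedom 8.41 to 231.6 over 44 pairs). The labels do not tie aortic to mesenteric libraries. The edgeR p-values test differences between groups against the spread between these libraries, which is estimated with information shared over genes. The common dispersion was 0.127 in mesenteric arteries and 0.0286 in aortas.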

Additional observations from a re-analysis of the deposited data

Results flagged for a closer look

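In 6 of 60 groups of member values, 1 library stood apart by Dixon's criterion, which chance meets in about 1 in 20 groups. All 6 were mesenteric. Cdkn1a was at 61.8 CPM in KO AngII replicate 3, against 110 to 126 CPM in the other 4. Cdkn2a was at 3.26 CPM in the same library, against 0.193 to 0.418 CPM in the other 4, and at 0.695 CPM (13 counts) in WT AngII replicate 1, against 0.116 to 0.132 CPM in the other 3. Cdkn1c was at 12.3 CPM in WT AngII replicate 1, against 18.0 to 18.8 CPM in the other 3. Mdm2 was at 77.7 CPM in WT sham replicate 3, against 59.2 to 61.4 CPM in the other 3. Gdf15 was at 3.35 CPM in KO AngII replicate 5, against 1.05 to 1.51 CPM in the other 4. KO AngII replicate 3 and WT AngII replicate 1 are the libraries with 1383 and 403.4 CPM of lymphocyte markers, and the part of that in their values was not tested.

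The AngII effect was called different between mesenteric arteries and aorta, by the interaction term of edgeR, for Cdkn1a (-0.87 ± 0.205, adjusted p = 0.0248) and Cdkn2c (-0.95 ± 0.227, adjusted p = 0.0267). Of 35 alternatives, 4 lost the call of Cdkn1a and 8 that of Cdkn2c.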

How the results depend on the processing

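No member changed direction past the threshold under any alternative: of the values of single members under alternatives, 2915 kept their side of the threshold, 26 lost a call, 28 gained one and 0 turned round. The 6 members that rose with AngII in the aorta were called under all 21 alternatives, with 6 to 8 members called in all. With AngII in mesenteric arteries limma voom called 1 member, and no library left out gave a call (0 to 0). For the deletion in mesenteric arteries 1 member (Cdkn1a) was called without the 4 libraries with most unaligned records, and 0 to 1 with 1 library left out; in the aorta none was called. KO AngII against WT sham mesenteric arteries moved most: DESeq2 called 5 members, limma voom 3, the fit without the 2 libraries that stand apart 2, that without the 4 libraries 2, that of only the 2 groups compared 0, that with the replicate block 0, and 0 to 2 were called with 1 library left out. In the aorta that comparison gave 6 to 8. The tissue difference of the AngII effect gave 1 member (Cdkn1a) with library size alone and 1 with the replicate block, where Cdkn2c had an edgeR adjusted p of 0.0656, 3 with limma voom (Sesn2 added), and 0 to 2 with 1 library left out. Between beds, KO AngII gave 3 members without the 4 libraries. The replicate block changed no other member's call. Deviations of libraries sharing a replicate number correlated at -0.252 to 0.318 within a bed (over 0.1 in 6 of 24 pairs). Between beds they correlated at -0.118 to 0.133 (over 0.1 in 3 of 13). Of the 13, 7 were closest to their own number in the other bed, so these values do not exclude that mice were shared. The numbers were not taken as pairs because the labels do not say what they mark. If mice were shared, the unblocked fits of 26 libraries ignored that pairing. Over all genes, DESeq2 called 238 higher and 71 lower with AngII in mesenteric arteries, against 32 and 0 by edgeR, and 898 and 507 in KO AngII against WT sham, against 80 and 44. The causes of these shifts were not tested. Cdkn2a in the aorta could be fitted only without a filter, with an edgeR adjusted p of 0.965 to 1.00. Low counts limit Cdkn2a and Gdf15, and the spread between mesenteric libraries limits that bed.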
